A study of Mus musculus with 8 samples.

Results

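Chaperones of the endoplasmic reticulum (ER) and genes of the unfolded protein response were followed in cultured mouse melanocytes, the pigment cells of the skin, measured with Affymetrix whole-transcript arrays. The set holds 10 genes taken by symbol: Hspa5, Hsp90b1, Calr, Pdia4, Dnajb9, Xbp1, Herpud1, Sdf2l1, Creld2 and Edem1. Of these, 9 were among the 22180 genes measured by a probe set with a single symbol. The only listed probe set for Pdia4, an ER disulfide isomerase, carries the names of 2 genes, so no level is given for Pdia4.

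The cells came from pups 1 to 5 days old and were kept in culture for 22 days. All carried floxed Atg7 alleles. WT cells (Atg7 f/f) were autophagy competent, and KO cells (Atg7 f/f Tyr::Cre) also carried Cre driven by the tyrosinase promoter, which is active in pigment cells, so any other cell type in a culture would keep Atg7. Each genotype was either sham treated or irradiated with UVA-1, ultraviolet A of the longer wavelengths, at 20 J/cm², and cells were harvested for RNA after 6 h. Each of the 4 combinations of genotype and treatment has 2 arrays, numbered 1 and 2, from cells labelled female. The series describes the arrays as biological duplicates, and the labels do not say whether pups were pooled. Atg7 encodes the E1-like enzyme of LC3 lipidation. Its probe set read 9.70 to 9.97 on the log2 scale in the 4 WT arrays and 9.22 to 9.70 in the 4 KO arrays, and KO minus WT came to -0.39 (SE 0.07), short of the threshold once adjusted for every gene measured (limma adjusted p = 0.297). Whether that probe set covers the deleted exon is not given in the sources used here, so it does not check the deletion.

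As background, proteins that enter the secretory pathway fold in the ER with the help of chaperones. When unfolded protein accumulates, the sensors IRE1, PERK and ATF6 raise the transcription of chaperones and of genes for ER-associated degradation, the route by which misfolded proteins are sent to the proteasome. In melanocytes the ER folds tyrosinase and the other melanosomal glycoproteins. UVA-1 produces oxidants in cells, and autophagy removes damaged protein and parts of the ER.

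The promoters of the set are shown first. The genes were taken by symbol as ER chaperones and unfolded protein response genes. Elements of that pathway in their promoters therefore describe the choice of genes and are not independent support. The ER stress response element (ERSE) is the motif through which ATF6, together with the CCAAT-binding factor NF-Y, acts on chaperone genes. Its letters, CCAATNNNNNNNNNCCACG, were searched on both strands in windows of 300 bases, from 250 before to 50 after the transcription start, taken from RefSeq for build GRCm38.p6. All 10 genes had a window, that of Edem1 at a start inside the gene's RefSeq span (chromosome 6, gene from 108824045, window from 108828391). Of the 10, 4 held the element, against 39 of 32851 such windows in the table, or 0.119%. The 4 were Hspa5, Hsp90b1, Calr and Creld2, and Hsp90b1 held it at 2 places. Herpud1 held the related ERSE-II, ATTGGNCCACG, found in 0.0365% of all windows. These elements contain a CCAAT box, which was counted separately as well and was present in 9 of the 10 windows and in 37.4% of all windows; Xbp1 had none. The UPRE core TGACGTG, the letters of the unfolded protein response element searched here, was found in Hspa5 (2.01% of all windows), and the C/EBP-ATF core TGATGCAA, a site type of ATF4 partners, in Herpud1 (0.895%). The triple heat shock element GAANNTTCNNGAA was found in none of the 10 and in 0.603% of all windows. A match is a description of letters and not a shown binding site. The windows with an ERSE or ERSE-II are given 5′ to 3′ along the gene's strand, with ERSE, ERSE-II and CCAAT boxes on either strand in capitals: Hspa5 (chr2:34771840-34772139, plus strand), Hsp90b1 (chr10:86705395-86705694, minus strand), Calr (chr8:84846882-84847181, minus strand), Creld2 (chr15:88819396-88819695, plus strand) and Herpud1 (chr8:94386179-94386478, plus strand).
Hspa5: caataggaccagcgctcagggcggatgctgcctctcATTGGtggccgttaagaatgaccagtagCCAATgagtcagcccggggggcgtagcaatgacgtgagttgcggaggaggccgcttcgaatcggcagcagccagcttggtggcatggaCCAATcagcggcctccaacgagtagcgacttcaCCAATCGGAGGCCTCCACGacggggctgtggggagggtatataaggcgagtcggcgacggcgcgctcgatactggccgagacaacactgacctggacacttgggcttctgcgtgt
Hsp90b1: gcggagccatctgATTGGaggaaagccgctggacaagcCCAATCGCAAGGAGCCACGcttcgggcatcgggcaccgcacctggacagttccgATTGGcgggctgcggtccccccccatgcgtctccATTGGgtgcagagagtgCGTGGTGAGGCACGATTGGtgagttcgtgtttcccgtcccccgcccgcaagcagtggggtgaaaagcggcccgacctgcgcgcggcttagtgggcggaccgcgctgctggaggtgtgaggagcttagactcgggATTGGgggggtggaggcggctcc
Calr: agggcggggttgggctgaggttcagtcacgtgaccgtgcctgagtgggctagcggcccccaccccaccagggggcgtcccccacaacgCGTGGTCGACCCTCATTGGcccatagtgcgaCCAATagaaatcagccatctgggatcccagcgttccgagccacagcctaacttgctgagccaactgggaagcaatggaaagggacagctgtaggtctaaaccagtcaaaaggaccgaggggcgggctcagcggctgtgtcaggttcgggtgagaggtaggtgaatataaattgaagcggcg
Creld2: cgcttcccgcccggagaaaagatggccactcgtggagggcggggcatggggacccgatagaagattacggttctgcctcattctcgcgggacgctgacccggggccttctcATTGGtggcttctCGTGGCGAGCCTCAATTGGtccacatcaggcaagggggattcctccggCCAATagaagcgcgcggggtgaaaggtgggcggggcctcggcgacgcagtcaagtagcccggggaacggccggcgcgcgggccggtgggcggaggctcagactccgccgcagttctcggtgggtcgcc
Herpud1: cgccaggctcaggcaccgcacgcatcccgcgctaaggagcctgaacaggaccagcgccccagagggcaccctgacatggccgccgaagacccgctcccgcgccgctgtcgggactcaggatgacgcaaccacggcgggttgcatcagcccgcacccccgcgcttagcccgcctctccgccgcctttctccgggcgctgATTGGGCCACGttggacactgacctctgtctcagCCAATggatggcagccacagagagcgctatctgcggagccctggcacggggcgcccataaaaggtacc

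**Figure D1:**
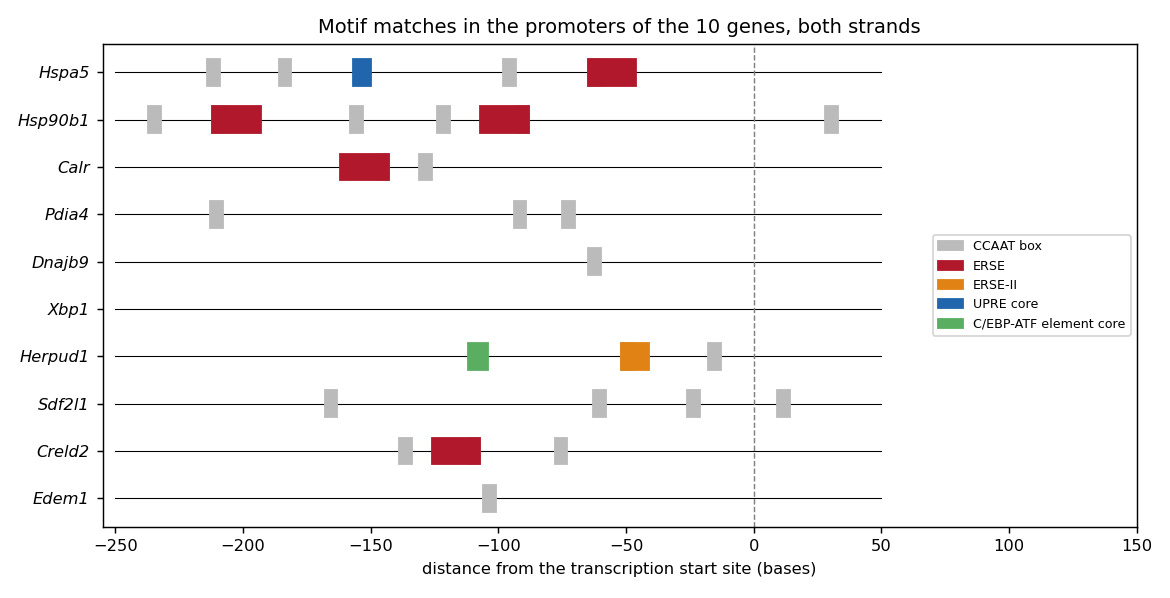
Motif matches on either strand in the promoter windows of the 10 genes; the x axis gives the distance from the transcription start in bases and each bar spans the matched letters. ERSE matches lie upstream of the start in Hspa5, Hsp90b1, Calr and Creld2, ERSE-II in Herpud1, and the window of Xbp1 holds none of the motifs.

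Across the 8 arrays the ER chaperones and unfolded protein response genes gave no call: none of the 9 measured genes passed limma's test in any of 5 comparisons. Intensities of different probe sets cannot be ranked against each other, so each gene is compared only with itself. Differences between the 2 replicate numbers were as large as or larger than those between treatments for most of the genes: the mean of number 2 minus that of number 1 ran from -0.37 for Dnajb9 to 0.69 for Sdf2l1 on the log2 scale. The rule that defines the set pairs arrays by replicate number, so this number entered every comparison of the main fit as a block. Each matched difference within a number is given beside the fit.

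**Figure D2:**
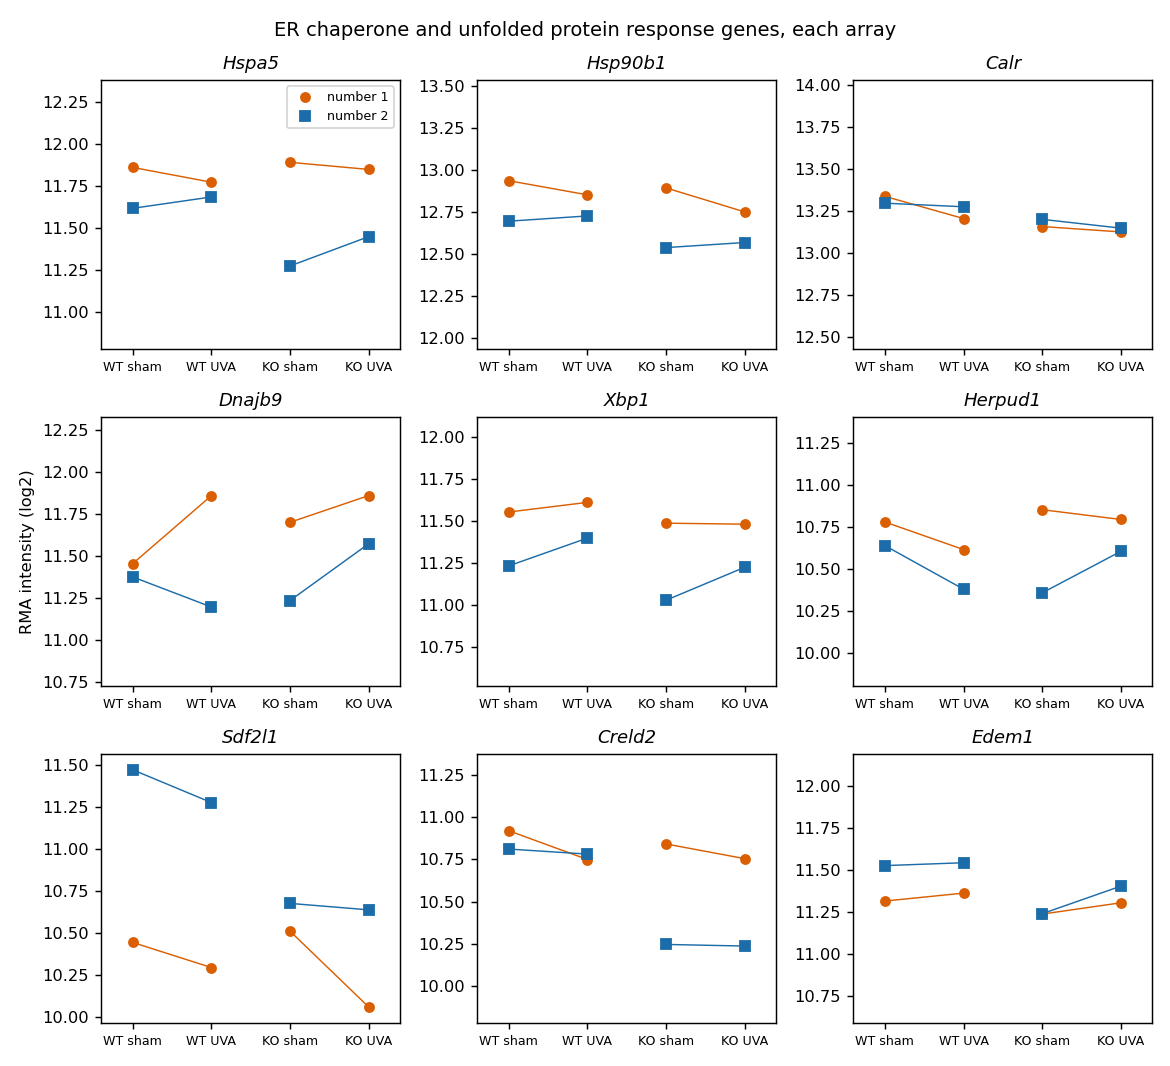
RMA intensity (log2) of the 9 measured genes on every array, by group; circles are replicate number 1 and squares number 2, and lines join the sham and UVA arrays of 1 genotype and number. Every panel spans the same number of log2 units; in Hspa5, Hsp90b1, Xbp1 and Creld2 the KO arrays of number 2 are the lowest, and in Sdf2l1 the WT arrays of number 2 are the highest.

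The first comparison asks whether these genes responded to UVA-1 within 6 h. No difference of an ER-resident chaperone passed. Hspa5 encodes BiP, the HSP70 of the ER that also holds the stress sensors inactive. Its WT arrays of number 1 read 11.86 (sham) and 11.77 (UVA), those of number 2 11.62 and 11.69. In KO it read 11.89 and 11.85 in number 1, and 11.27 and 11.45 in number 2. The direction thus followed the number and not the genotype: UVA was below sham in both genotypes of number 1 and above it in both of number 2. Averaged over genotypes the difference was 0.03 log2 units (SE 0.09, 95% interval -0.18 to 0.23; limma adjusted p = 0.974), so a fold change above 1.17 or below 0.886 lay outside the interval.

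Hsp90b1, which encodes GRP94, the HSP90 of the ER, split by number in the same way. Its UVA minus sham differences were -0.08 and 0.03 in WT and -0.14 and 0.03 in KO for numbers 1 and 2, and the average was -0.04 (SE 0.05, 95% interval -0.16 to 0.07). Calr encodes calreticulin, the lectin chaperone that holds monoglucosylated glycoproteins in the folding cycle. It was lower after UVA in all 4 matched pairs, by small amounts: -0.13 and -0.02 in WT and -0.03 and -0.05 in KO. That average, -0.06 (SE 0.04, 95% interval -0.15 to 0.03; adjusted p = 0.861), did not pass limma's test. Among all genes, 9.08% were lower after UVA in all 4 pairs and 10.6% were higher in all 4.

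The other folding factors were Sdf2l1, an ER protein that works with BiP and its J-domain partners, and Creld2, an ER protein with disulfide isomerase activity. Both were lower after UVA in all 4 pairs as well. Sdf2l1 read 10.44 and 10.29 in WT of number 1, 11.47 and 11.28 in WT of number 2, 10.51 and 10.06 in KO of number 1, and 10.68 and 10.64 in KO of number 2, sham before UVA in each case. Its KO pair of number 1 stands apart with a difference of -0.45, while the remaining pairs lie between -0.20 and -0.04. The average was -0.21 (SE 0.14, 95% interval -0.54 to 0.13; limma adjusted p = 0.868), and 0.238 with each culture as a block, the lowest adjusted p of any member in any setting. Creld2 differed by -0.17 and -0.03 in WT and by -0.09 and -0.01 in KO, on average -0.07 (SE 0.11).

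Values of regulators and degradation factors differed in sign. Xbp1 encodes the transcription factor whose mRNA is spliced by IRE1; the probe set used gives a gene level, and splicing was not analysed here. It read 11.55 and 11.61 in WT of number 1 and 11.23 and 11.40 in WT of number 2, and 11.48 and 11.48 in KO of number 1 and 11.03 and 11.22 in KO of number 2. The average difference was 0.10 (SE 0.06, 95% interval -0.03 to 0.24). Dnajb9 encodes ERdj4, a BiP co-chaperone and a standard target of spliced XBP1. It had the largest positive average of the 9, 0.18 (SE 0.09, 95% interval -0.04 to 0.40; limma adjusted p = 0.827), and its pairs did not share a direction: 0.41 in WT of number 1, -0.18 in WT of number 2, and 0.16 and 0.34 in KO.

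Edem1, a lectin that passes misfolded glycoproteins to degradation, was higher after UVA in all 4 pairs, by 0.05 and 0.02 in WT and 0.07 and 0.16 in KO, on average 0.07 (SE 0.05). Herpud1 encodes an ER membrane protein that organises the ubiquitin ligase complex of ER-associated degradation. Its pairs were lower after UVA in WT, -0.16 and -0.26, and in KO they read -0.06 and 0.25. Only the KO pair of number 2 was positive. The average was -0.06 (SE 0.07), and the difference between the genotypes' responses, the largest in value among the 9 genes, was 0.31 (SE 0.14, 95% interval -0.04 to 0.65). That interaction had an unadjusted p of 0.0720 and an adjusted p of 1 in limma.

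**Figure D3:**
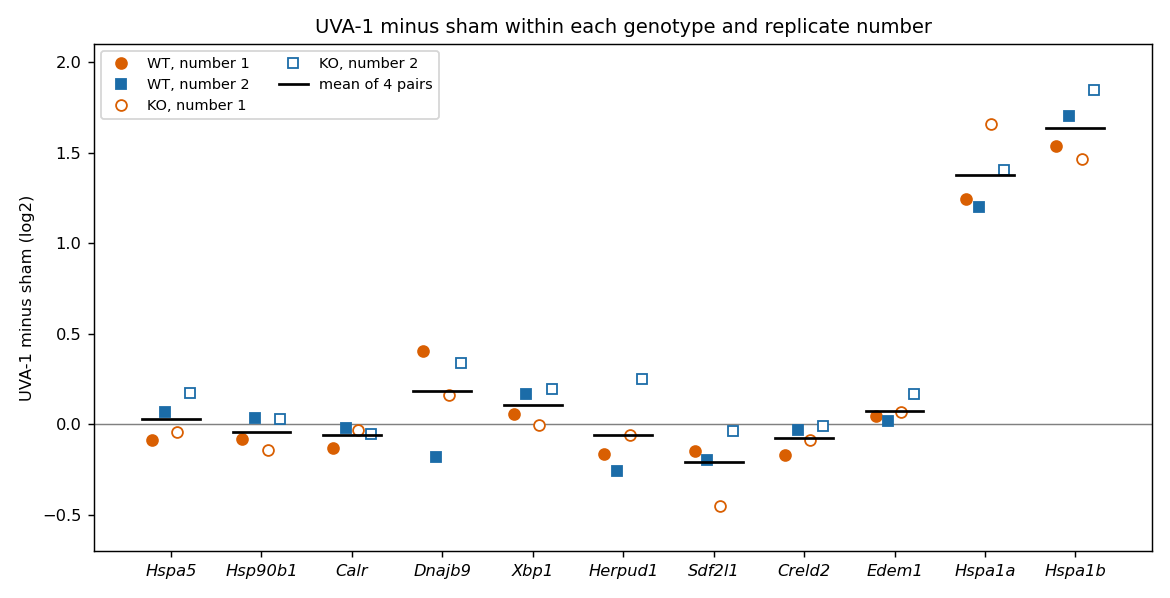
UVA-1 minus sham (log2) within each genotype and replicate number for the 9 genes and, at the right, the cytosolic chaperones Hspa1a and Hspa1b; filled symbols are WT, open symbols KO, circles number 1, squares number 2, and bars the mean of the 4 pairs. Means of the 9 genes lie between -0.21 and 0.18, and those of Hspa1a and Hspa1b at 1.38 and 1.64.

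By count, 0 of the 9 genes passed limma's test for UVA averaged over genotypes, where 0.0135% of all genes did, and 0 had an unadjusted p under 0.05, against 6.54% of all genes. In WT alone 0 of 9 passed (0.00451% of all genes) and 0 had an unadjusted p under 0.05 (3.94%). In KO alone the counts were 0 of 9 (0.00902%) and 0 of 9 (4.02%). For the interaction 0 of 9 and 0% of all genes passed, with 0 of 9 at an unadjusted p under 0.05 against 2.06%. A fit that blocks on the culture (1 genotype with 1 number) passed 0.365% of all genes for the averaged UVA comparison and again 0 of the 9. The median UVA minus sham difference over the 9 genes was -0.04, and over all genes 0.0023. Positive values were found for 4 of the 9, against 51.0% of all genes.

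The same arrays registered a response of heat shock genes in the cytosol. Hspa1b, an inducible HSP70, went from 9.19 in the sham array to 10.72 in the UVA array in WT of number 1, and from 9.45 to 11.15 in WT of number 2. Its KO arrays read 9.52 and 10.98 in number 1, and 9.66 and 11.51 in number 2. Every UVA array was above every sham array, and Hspa1b rose by 1.64 log2 units (SE 0.08, limma adjusted p = 0.00302). Hspa1a, its near-identical neighbour, whose probes may share its transcripts, rose by 1.38 (SE 0.08, limma adjusted p = 0.00849). Both lost the call without the replicate block, where 0 genes passed. When 1 array was left out, 2 genes passed without KO UVA number 2, 1 without KO UVA number 1 and 0 without any other array. Over the 18 measured genes of the cytosolic chaperone list, 18 had a positive averaged difference (51.0% of all genes), with a median of 0.13. That list also holds the mitochondrial chaperone genes Hspd1 and Hspe1, at 0.07 and 0.02. Of the 18, Hspa1a and Hspa1b passed. With each culture as a block Hspb8, a small heat shock protein gene, passed as well (0.49, SE 0.05, limma adjusted p = 0.00702).

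The ATF4 and CHOP target list stands for the arm of the unfolded protein response that runs through PERK and that other stresses reach as well. It had 14 of 22 positive values (51.0% of all genes) and a median of 0.06. In limma 0 passed and 5 were higher at an unadjusted p under 0.05, where 3.88% of all genes were. Slc7a11, the cystine importer, read 1.40 (SE 0.15, limma adjusted p = 0.134), and Atf3, a stress-induced transcription factor, 0.74 (SE 0.11, adjusted p = 0.301). In WT and KO the differences were 1.52 and 1.28 for Slc7a11 and 0.47 and 1.01 for Atf3. The interaction of Atf3, 0.54 (SE 0.22), did not pass. With each culture as a block 3 of the 22 passed in limma, all higher after UVA: Slc7a11 (adjusted p = 0.00791), Atf3 (0.0234) and Ppp1r15a (0.43, SE 0.07, adjusted p = 0.0497). Ppp1r15a encodes GADD34, which directs the dephosphorylation of eIF2 alpha.

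Other ER genes stayed nearer to 0, and 0 of them passed in either of those fits. Among 15 sensors and transcription factors the median was 0.04, and Ddit3, which encodes the pro-apoptotic factor CHOP, read 0.23 (SE 0.06, limma adjusted p = 0.671). Ddit3 differed by 0.11 in WT and 0.35 in KO, and the interaction, 0.24 (SE 0.12), did not pass. A further factor, Nfyb, a subunit of the CCAAT-binding factor, read 0.17 (SE 0.09). The 24 other ER chaperones and folding enzymes had a median of -0.01; the ER oxidase genes Ero1a and Ero1b, named for the size of their differences, read 0.21 and 0.16. Of 19 genes in the list for ER-associated degradation 14 were positive (51.0% of all genes), with a median of 0.05. The list also counts Niban1 (0.02), a stress-induced gene that is not a degradation factor. At an unadjusted p under 0.05 in limma 5 were higher (3.88% of all genes). Herpud2, the relative of Herpud1, read 0.22 (SE 0.05) and Nploc4, a cofactor of the p97 ATPase, 0.21 (SE 0.05). Nploc4 lay at the threshold with each culture as a block (limma adjusted p = 0.0501).

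Medians were -0.01 over 29 genes of the translocon, signal peptidase and glycosylation, 0.04 over 22 genes of ER to Golgi traffic and 0.01 over 8 ER-phagy receptors, which link pieces of ER to the autophagy machinery. In these lists the largest values belonged to Srp68, of the signal recognition particle (0.17), Gfpt1, of the hexosamine pathway (0.11), Kdelr3, a receptor that returns chaperones from the Golgi (0.17), Sec23a, of the COPII coat (0.15), Retreg3 (0.18) and Calcoco1 (0.14).

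**Figure D4:**
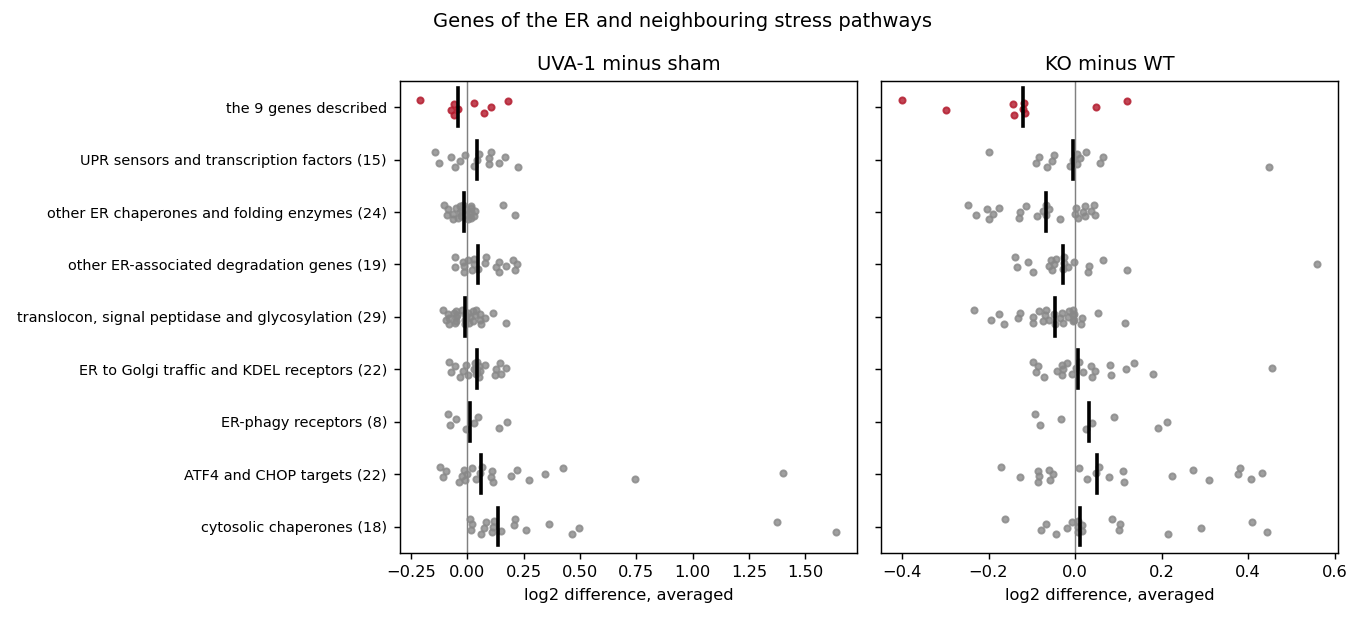
Averaged log2 differences of each measured gene (points) by list, with the list's median as a bar; the left panel gives UVA-1 minus sham and the right panel KO minus WT, with separate x axes. The 9 genes described have medians of -0.04 and -0.12, and the points farthest to the right in the left panel are Hspa1b and Slc7a11 at 1.64 and 1.40 and Hspa1a at 1.38.

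The second comparison asks whether autophagy competent and deficient cells differ in these genes, averaged over sham and UVA. Values were lower in KO for 7 of the 9 genes, against 54.1% of all genes, and the median over the 9 was -0.12, against -0.01 over all genes. None passed over all genes in limma (0 of 9; 0.0316% of all genes passed). At an unadjusted p under 0.05 there were 5 of 9, all of them lower in KO, against 8.88% of all genes in either direction and 3.94% lower in KO. Here the 2 arrays of 1 genotype and number count as independent. If they came from 1 culture, which no label states, these p-values would be too small. Sham and UVA arrays of 1 genotype and number correlated at 0.996 to 0.997, and duplicates of a group at 0.962 to 0.978. Whether such arrays share a culture was not tested. The main fit had 1970 of 22180 genes at that level in either direction, and the count over all genes moved with the setting as well. Without the replicate block the count was 1 of 9, beside 517 of all genes. It was 2 without the eBayes trend (1921 genes) and 4 with the mean of all probe sets of a gene (1953 genes). It was 5 with dim genes left out (1174 of 11090 genes) and 5 with 16 added to each intensity (1941 of 22180). With the array median subtracted it was 6 (1999 of 22180). It was below 5 without WT sham number 1, without KO UVA number 1 and without any 1 array of number 2. Each of those fits leaves 1 array in a group, so no counts are given for them. With 1 value per culture, 0 of 9 had an unadjusted p under 0.05 (3.32% of all genes), with 1 residual degree of freedom for each gene.

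Calr alone among the 9 had genotypes that did not overlap. Its WT arrays read 13.34 and 13.20 in number 1 and 13.30 and 13.27 in number 2, sham before UVA. The KO arrays read 13.16 and 13.12 in number 1 and 13.20 and 13.15 in number 2. Every KO array was below every WT array, though the gap between the nearest arrays was small, at an intensity of 9438 in the lowest WT array and 9407 in the highest KO array. The averaged difference was -0.12 (SE 0.04, 95% interval -0.21 to -0.03; unadjusted p = 0.0139, limma adjusted p = 0.503), or 0.920 of the WT level. Over all genes, 0.942% had all 4 KO arrays below all 4 WT arrays.

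Sdf2l1 and Creld2 had the largest KO minus WT differences, -0.40 (SE 0.14, 95% interval -0.74 to -0.07; limma adjusted p = 0.537) and -0.30 (SE 0.11, 95% interval -0.56 to -0.03; adjusted p = 0.547). Both rested on number 2. Sdf2l1 in KO stood 0.07 above WT after sham and at -0.24 against it after UVA in number 1, but at -0.80 and -0.64 in number 2. Creld2 read 10.92 and 10.75 in WT and 10.84 and 10.75 in KO of number 1, and 10.81 and 10.78 in WT against 10.24 and 10.23 in KO of number 2. In number 1 the genotypes of Creld2 thus lay within 0.08 log2 units of each other, and in number 2 they lay -0.57 apart after sham and -0.55 after UVA.

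Hspa5 showed the same split, with KO minus WT differences of 0.03 and 0.08 in number 1 and -0.34 and -0.24 in number 2 (average -0.12, SE 0.09, limma adjusted p = 0.710). Hsp90b1, Xbp1 and Edem1, like Calr, were lower in KO in all 4 matched pairs. Their averages were -0.12 for Hsp90b1 (SE 0.05, adjusted p = 0.563 by limma), -0.14 for Xbp1 (SE 0.06, 0.548) and -0.14 for Edem1 (SE 0.05, 0.548). These 4 of 9 genes compare with 7.78% of all genes that were lower in KO in all 4 pairs and 7.66% that were higher.

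Dnajb9 and Herpud1 were the genes with positive averages. Dnajb9 in KO against WT read 0.25 (sham) and 0.0008 (UVA) under number 1 and -0.14 and 0.38 under number 2. Herpud1 read 0.07 and 0.18 under number 1, then -0.28 and 0.23 under number 2. Averages of 0.12 (SE 0.09) and 0.05 (SE 0.07) did not pass. In number 2 both genes were lower in KO after sham and higher after UVA.

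**Figure D5:**
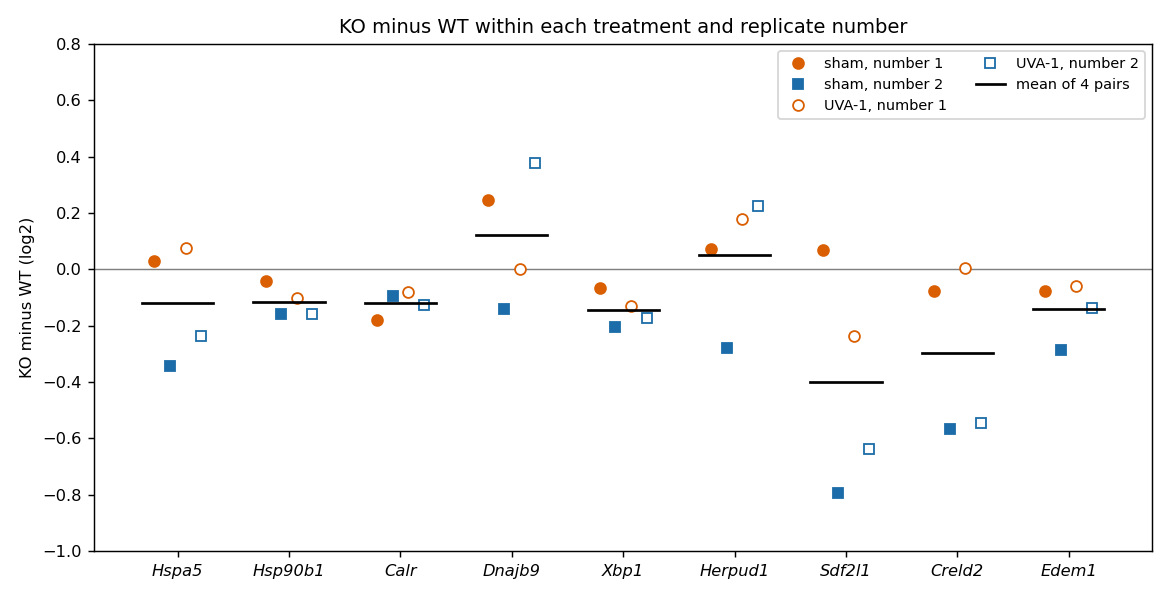
KO minus WT (log2) within each treatment and replicate number; filled symbols are sham, open symbols UVA-1, circles number 1, squares number 2, and bars the mean of the 4 pairs. In number 2 Sdf2l1 and Creld2 lie between -0.80 and -0.55, and in number 1 between -0.24 and 0.07.

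By number, 7 of 9 genes were lower in KO after both treatments in number 2, against 34.7% of all genes, and 4 of 9 in number 1, against 24.2%. Across the 9, the median difference between genotypes was -0.07 for number 1 but -0.19 for number 2. Since each number holds 1 sham and 1 UVA array of a genotype, taken here as 1 culture, this contrast between numbers was not tested. In bulk RNA, fewer cells of a type and less RNA per cell cannot be told apart. Markers of cell types were therefore read on the same arrays. Melanocyte markers, 11 of 12 measured, had a summed intensity of 66968 to 71850 in the arrays of number 1 and 104011 to 118043 in those of number 2. For fibroblast markers, 11 of 12 measured, the sum was 52157 and 53835 in the WT arrays of number 1 and 51870 and 54932 in the KO arrays, against 9224 and 10628 in WT and 21053 and 22759 in KO of number 2.

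Fibroblast markers had a median genotype difference of -0.05 under number 1 and 1.18 under number 2, where melanocyte markers had a median of -0.33. In the same cultures the medians of the 9 genes differed as given above; the part of cell composition in those differences was not tested. Keratinocyte markers summed to 633 to 697 over 7 genes and mast cell markers to 118 to 132 over 5 genes. Summed myeloid markers (8 genes) read 1063 to 1458 in WT and 1227 to 2732 in KO. The lysozyme gene Lyz2 was higher in KO by 0.47 in number 1 and 1.70 in number 2. Averaged KO minus WT differences were below 0 for 5 of the 8 myeloid markers, with a median of -0.06 over the list. Summed endothelial markers (8) read 1257 to 1842 in WT and 1360 to 1964 in KO. Sums for Schwann cell markers (6) were 5307 to 6892 and 5818 to 6694, and for skeletal muscle markers (6) 728 to 831 and 737 to 965. Within the Schwann cell list, the neurotrophin receptor gene Ngfr was higher in KO by 1.191 in number 1 and 0.21 in number 2, and S100b read 0.87 and -0.21. After UVA, Ngfr and the fibroblast marker Pdgfrb passed with each culture as a block, at -0.52 and -0.28 (limma adjusted p = 0.0223 and 0.0486); their part in the values of the 9 genes was not tested.

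Among the neighbouring lists, the folding and translocation genes had the lowest medians in KO against WT. The 29 genes of the translocon, signal peptidase and glycosylation had 4 positive values and a median of -0.05. The 24 other ER chaperones and folding enzymes had 9 positive values and a median of -0.07. Over all genes 45.8% were positive and the median was -0.01. Medians were -0.03 over the 19 genes of the degradation list, -0.0058 over the 15 sensors and transcription factors and 0.0058 over the 22 traffic genes. They were 0.03 over the 8 ER-phagy receptors, 0.05 over the 22 ATF4 and CHOP targets and 0.01 over the 18 genes of the cytosolic chaperone list. Of all these genes 0 passed the test for genotype in limma. Some had higher values in KO at an unadjusted p under 0.05 (4.94% of all genes). These were 6 ATF4 and CHOP targets, 4 genes of the cytosolic chaperone list, 2 ER-phagy receptors and 1 sensor or transcription factor gene. At the same level 3 translocon genes, 2 folding enzymes and 1 ATF4 and CHOP target had lower values (3.94% of all genes). Kdelr3 differed by -0.001 and -0.14 in number 1 and by 0.99 and 0.97 in number 2. In number 2 fibroblast markers were also higher in KO than in WT. The part of cell composition in the Kdelr3 values was not tested. Calcoco1, an ER-phagy receptor, was higher in KO in all 4 pairs, on average by 0.21 (SE 0.06, limma adjusted p = 0.496).

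The 9 genes were also set against each other across arrays, as a description over 8 arrays that may share cultures. After each number's mean was removed, 28 of their 36 pairwise correlations were above 0, with a median r of 0.49 and a range of -0.74 to 0.94. With the mean profile of the 9, which contains each of them, r was 0.93 for Creld2, 0.92 for Hspa5, 0.91 for Sdf2l1, 0.87 for Edem1, 0.84 for Hsp90b1, 0.74 for Xbp1 and 0.57 for Calr, but 0.36 for Herpud1 and -0.16 for Dnajb9. That mean profile was highest in the WT arrays of number 2 (0.14 after sham and 0.10 after UVA, relative to the mean of the number) and lowest in the KO arrays of number 2 (-0.18 and -0.06), while the arrays of number 1 lay between -0.04 and 0.03. Of all genes outside the set, Tbc1d13, Ndufv1, 4930480E11Rik, Hps3 and Zw10 followed it most closely over the 8 arrays, with r of 0.993, 0.990, 0.989, 0.988 and 0.988. They were picked for the highest r among all genes, so these values are a description and not a test.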

How the data were processed

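The deposited table gives 1 intensity per probe set and array, made by the authors by RMA, which normalizes arrays by quantiles, in Affymetrix Expression Console 1.3.1.187, per the submitters' processing notes. Their build and annotation: not given in the sources used here. Values are whole numbers from 7 to 22585, and log2 was taken with no offset. Quantile normalization hides a shift shared by most transcripts.

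Of 41345 probe sets, 23521 had a single symbol in the platform annotation, 1814 several and 16010 none in the table used. The probe set with the highest mean over 8 arrays stood for each of 22180 genes; 21994 matched RefSeq (GRCm38.p6) by Entrez identifier. Edem1 had 2 probe sets, with means of 11.37 (used) and 5.87.

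limma 3.58.1 in R 4.3.3 fitted the 4 group means over 8 arrays with the replicate number as a block (3 residual degrees of freedom), eBayes with a trend, two-sided tests, and Benjamini-Hochberg adjustment over all genes at 0.05. Same-numbered arrays were treated as matched because the rule of the set pairs them, although no label states what the number means. The check of pairing correlated each group's deviations from its mean with those of every other group, and r was 0.80 to 0.92 over 6 comparisons. P-values measure the spread between these samples, which may be partly technical. The fits were run on simulated data with added UVA differences and no genotype differences. Noise in that simulation was independent between arrays, so it could not test the effect of arrays that share a culture. Duplicates correlated at 0.962 to 0.978 and none were identical. The sham and UVA arrays of 1 genotype and number correlated at 0.996 to 0.997.

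Besides the 10 genes, 16 lists were used: 8 of pathways and 8 of cell type markers. Members and lists were chosen with earlier results of these data known. Named genes of other pathway lists were those past the threshold, or otherwise the 2 largest averaged UVA differences of a list; genes that follow the set were the 5 of highest correlation. Ppp1r15a, Hspb8, Lyz2, Ngfr, S100b and Pdgfrb were named after their values were seen, and marker genes were not ranked by intensity. Genes that share a probe set with another symbol were left out.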

Additional observations from a re-analysis of the deposited data

How the results depend on the processing

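No member passed in any setting: 0 of 693 member values under an alternative, 45 of which changed sign, 44 of them when 1 array was left out. Over all genes, without the replicate block 0 genes passed for UVA in WT, in KO and averaged and 0 for KO vs WT. Each culture as a block called 81 genes for UVA averaged and 12 in WT; 1 value per culture called 0 for KO vs WT. No trend, or only the 2 groups compared, gave 0 in WT and 0 in KO. Leaving out 1 array gave 0 to 2 genes for UVA averaged and 0 to 0 for UVA in WT, UVA in KO and KO vs WT; the cause was not tested. Edem1's interaction read -0.016 with the mean of its probe sets, 1 of which is dim.

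Without 1 array in turn, these log2 differences spanned 0. UVA in WT: Hspa5 -0.18 to 0.16, Hsp90b1 -0.093 to 0.040, Dnajb9 -0.084 to 0.31, Sdf2l1 -0.40 to 0.054, Creld2 -0.32 to 0.12 and Edem1 -0.026 to 0.091. UVA in KO: Hspa5 -0.12 to 0.25, Hsp90b1 -0.14 to 0.030, Xbp1 -0.0025 to 0.19, Herpud1 -0.059 to 0.25, Sdf2l1 -0.59 to 0.10 and Creld2 -0.25 to 0.15. UVA averaged: Hspa5 -0.065 to 0.12, Hsp90b1 -0.084 to 0.0016, Herpud1 -0.14 to 0.018 and Creld2 -0.18 to 0.036. KO vs WT: Herpud1 -0.028 to 0.13. Interaction: Hspa5 -0.11 to 0.26, Hsp90b1 -0.12 to 0.056, Calr -0.0084 to 0.078, Dnajb9 -0.061 to 0.33, Xbp1 -0.11 to 0.081, Sdf2l1 -0.42 to 0.28 and Creld2 -0.17 to 0.27. The number of arrays limits every interval.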
